A study of Mus musculus with 24 samples.

Results

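The genes described here are 8 pattern recognition receptors and 1 adaptor: the Toll-like receptors Tlr2, Tlr3, Tlr4, Tlr5 and Tlr9, the cytosolic receptors Nod1, Nod2 and Nlrp6, and Myd88. They were taken by gene symbol, 9 of the 56691 genes in the count table, and each symbol matched 1 row. All 9 had counts, among 34471 genes with a count in at least 1 library. The data are bulk RNA-seq of distal jejunum from 24 mice, 3 in each of 8 groups that combine sex, genotype and treatment. The genotypes were wild type and Ptk6-/-, a germline knockout of the kinase gene Ptk6 on the C57BL/6 background, so every cell type of the animal lacks it. Control mice drank regular water and treated mice drank 100 mM succinate for 7 days, and all were killed at 9 to 11 weeks of age. The comparisons ask whether loss of Ptk6, or succinate, a metabolite that tuft cells sense, goes with a different level of these receptors in male and in female mice.

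Pattern recognition receptors bind molecules that microbes carry and host cells mostly lack. Toll-like receptors sit in the cell surface or in endosomes, and all of those here except Tlr3 signal through the adaptor Myd88, which recruits IRAK kinases and leads to NF-κB. Nod1, Nod2 and Nlrp6 are proteins of the cytosol. In the gut these receptors are carried by epithelial cells and by immune cells of the lamina propria, and bulk RNA does not separate the cell types.

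The receptor genes are spread over 7 chromosomes of GRCm39, the build given in the submitters' processing notes. Tlr5 lies at chr1:182782353-182804010 on the plus strand, Tlr2 at chr3:83743579-83749074 on the minus strand and Tlr4 at chr4:66745821-66848521 on the plus strand. Nod1 lies at chr6:54900934-54949597 on the minus strand and Nlrp6 at chr7:140500815-140509105 on the plus strand. Chromosome 8 holds both Tlr3 (45848702 to 45864117, minus strand) and Nod2 (89373943 to 89415102, plus strand), and chromosome 9 holds Tlr9 (106099797 to 106104082, plus strand) and Myd88 (119165000 to 119169107, minus strand). All 9 have protein-coding transcripts in the files and counts are sums over whole genes. Tlr3 overlaps the antisense gene Gm45542, Tlr4 overlaps an unnamed gene on its own strand, and Myd88 overlaps Acaa1a on the other strand and Slc22a14 on its own. The libraries kept strand, but the sources used here do not say whether counting did, so reads of these overlaps may be shared.

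Promoter sequences from RefSeq (build GRCm38.p6) were found for 8 of the 9 genes, with 9 promoters in all, since Nod1 has a pair of start sites. The 100 bases before the start site are shown for Nlrp6 and Myd88, the most abundant of the set, and for Tlr3 and Tlr2, whose levels separated groups of males. They lie at chr7:140920802-140920901 (plus strand), chr9:119340019-119340118, chr8:45410381-45410480 and chr3:83841609-83841708 (all minus strand). Each is written 5′ to 3′ on the strand of the gene, and capitals mark matches to the motifs searched.
Nlrp6: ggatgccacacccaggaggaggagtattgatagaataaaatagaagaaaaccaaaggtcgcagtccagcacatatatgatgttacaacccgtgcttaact
Myd88: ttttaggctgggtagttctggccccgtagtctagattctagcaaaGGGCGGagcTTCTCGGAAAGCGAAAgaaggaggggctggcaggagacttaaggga
Tlr3: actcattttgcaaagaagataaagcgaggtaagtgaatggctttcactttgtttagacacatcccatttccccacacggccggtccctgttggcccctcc
Tlr2: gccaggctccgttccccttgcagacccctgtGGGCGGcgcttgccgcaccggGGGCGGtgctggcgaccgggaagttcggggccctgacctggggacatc
The motifs, searched on both strands of the 250 bases before each start site, were the TATA box TATAAA, the GC box GGGCGG, the CCAAT box, the interferon-stimulated response element (GAAA, any 2 bases, GAAA) and the STAT site TTCNNNGAA. Of 32851 mouse promoters, 12.4%, 32.7%, 33.8%, 2.98% and 7.02% held them, in that order. A GC box was found in 5 of the genes, Tlr2, Tlr5, Nod1, Nod2 and Myd88. Myd88 alone of these promoters held the interferon-stimulated response element, as GAAAGCGAAA from position -40 of the start site, and its TTCTCGGAA from position -46 overlaps that match. The windows of Nlrp6, Tlr3 and Tlr9 held none of the 5 motifs. Such matches are letters only, and no binding was measured.

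The genes differed widely in abundance. FPKM, fragments scaled by transcript length and library size, allows genes to be compared per length. Nlrp6, an inflammasome sensor of the intestinal epithelium, had the highest FPKM of the set in 24 of 24 libraries, with a range of 5.27 to 50.1 and a median of 35.4. Myd88 came second in 24 of 24, from 1.77 to 13.5 with a median of 10.4. Tlr3, the endosomal receptor for double-stranded RNA, ranked next in 21 of 24, from 0.247 to 3.63 with a median of 1.91. Nlrp6 and Myd88 made up 69.5% and 20.4% of the mean summed FPKM of the 9 genes. By mean FPKM, Nlrp6 stood above 96.5% and Myd88 above 89.8% of the 34471 genes.

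The remaining receptors were low. Nod1, which binds a peptidoglycan fragment that carries diaminopimelic acid, had a median of 1.11 FPKM, and Tlr2, the receptor for bacterial lipoproteins, a median of 0.821 FPKM. Nod2, the receptor for muramyl dipeptide, had a median of 0.182 FPKM. Tlr9, which binds unmethylated CpG DNA in endosomes, had a median of 0.134 FPKM, and Tlr4, the lipopolysaccharide receptor, a median of 0.127 FPKM. Tlr5, the flagellin receptor, was the lowest at a median of 0.051 FPKM. The order by mean level was the same 1 to 9 when TMM-normalized CPM (counts scaled to the library's effective size) were divided by gene length. Tlr5 rested on 4 to 73 counts a library and Tlr4 on 0 to 64. Tlr9 had 0 counts in 3 libraries, which allows up to 3 counts in each, and at most 167 in any other. Differences in these genes are therefore measured with wide intervals.

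**Figure D1:**
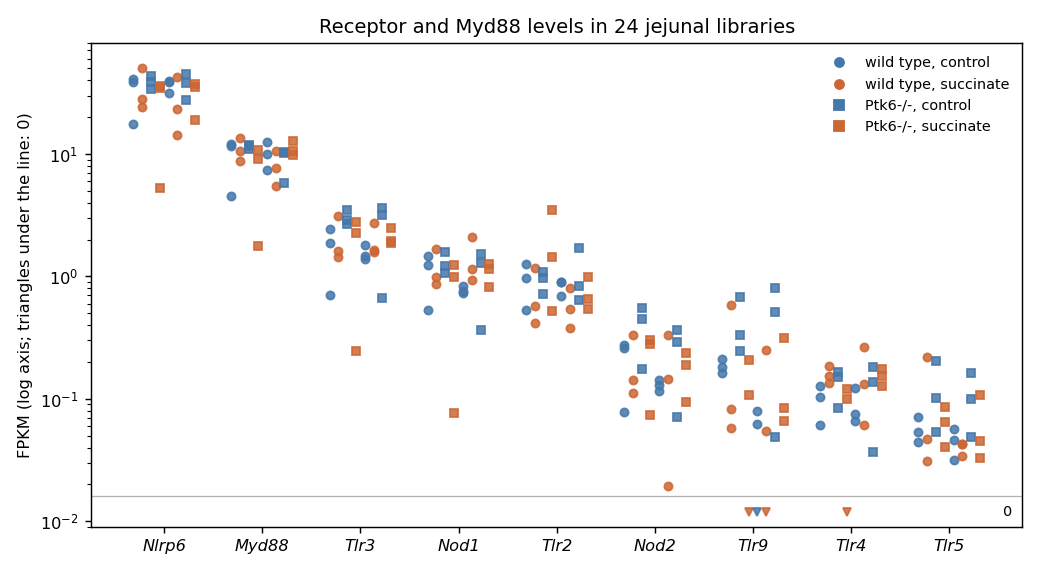
FPKM (log axis) of the 9 genes in each of the 24 libraries; circles are wild type, squares Ptk6-/-, blue control and orange succinate, and triangles under the line are values of 0. Nlrp6 and Myd88 lie above the other genes in every library, with medians of 35.4 and 10.4, and the lowest points of Nlrp6, Myd88, Tlr3 and Nod1 belong to a single shallow library.

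A set of 3 libraries stood apart and touches several results. Replicate 1 of the male wild type controls had 51.2% of its counts on the 18S ribosomal RNA gene Rn18s-rs5, and replicate 1 of the succinate-treated male Ptk6-/- mice had 29.7%, with a total of only 8080321 counts against a median of 43017686.5 and a highest total of 52824743. FPKM is not corrected for that share, and groups were compared in CPM. In the second of these libraries Nlrp6, Myd88 and Nod1 were also low in CPM, at 118, 20.1 and 1.96. Replicate 2 of the succinate-treated female wild type mice had heart markers at a summed 14550.2 CPM, against 13.2 to 199 CPM in the other libraries. The 5 lung markers summed to 10.9 to 16.4 CPM in control and 5.97 to 9.92 CPM in treated female Ptk6-/- mice. They reached at most 0.326 CPM in female wild type controls and 0.336 CPM in males, and 0.0922 to 14.7 CPM in treated female wild type mice. The part of the lung markers in the results was not tested. Ptk6 had 7 to 61 counts in the 12 Ptk6-/- libraries and 284 to 2405 in the 12 wild type libraries. All 6 epithelial markers exceeded 3 counts in every library, summing to 8819.53 to 20910.8 CPM. Of 8 macrophage markers 7 did, summing to 149 to 806 CPM, and of 7 B cell and follicle markers 3 did, summing to 13.9 to 132 CPM. Of 5 neutrophil markers only Csf3r exceeded 3 counts everywhere (1.02 to 8.10 CPM summed), and Ly6g was at 0 in 21 libraries. The 2 distal ileum markers, Fabp6 and Slc10a2, summed to 32.8 to 8411 CPM over the libraries. Whether the samples differ in position along the gut was not tested. In bulk RNA, fewer cells of a type and less RNA per cell cannot be told apart.

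Across the 8 groups, the levels of each gene ran into one another. When the groups were ordered by mean CPM, 62 of the 63 pairs of neighbouring groups overlapped in their libraries. The exception was Tlr2, for which the succinate-treated male Ptk6-/- group lay clear of the next group, the male wild type controls. It overlapped the female Ptk6-/- controls, which had 1 library at 6.28 CPM above its lowest, at 5.65 CPM. Nlrp6 means went from 180 ± 87.3 CPM (SD, n = 3) in succinate-treated female wild type mice to 254 ± 23.7 in female wild type controls. Myd88 means went from 27.2 ± 7.77 CPM in succinate-treated female wild type mice to 36.9 ± 2.19 in male Ptk6-/- controls. Over the 24 libraries, Myd88 and Nlrp6 varied least, with coefficients of variation of 18.2% and 23.4% in CPM, and Tlr9 varied most, at 99.2%.

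Genotype was compared first in control mice (edgeR quasi-likelihood test; a call needed a fold change of 2 or more together with an adjusted p, by Benjamini-Hochberg, under 0.05). None of the 9 genes was called in males, where 0.739% of all tested genes were. Tlr3 was the only member at an unadjusted p under 0.05 (25.2% of all genes) and the only one whose groups did not overlap (32.0% of all genes). Tlr3 stood at 10.6, 12.2 and 16.2 CPM in the male wild type controls and at 21.4, 17.3 and 19.8 CPM in the male Ptk6-/- controls. All 3 knockout libraries were higher than all 3 wild type libraries. The log2 fold change was 0.55 ± 0.17 (SE; n = 3 per group; adjusted p = 0.0916), and it lay between 0.42 and 0.95 in 18 alternatives, with adjusted p from 0.0279 to 0.930. Among them, DESeq2 gave an adjusted p of 0.0348 and voom 0.0279, at folds under 2. Both tools called 0 of the 9 genes.

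Tlr3 also moved with other measures of the libraries. In each library, the deviation of genes from their mean was regressed on the logarithm of gene length, and this slope was 0.0842 to 0.141 in the male Ptk6-/- controls and -0.0562 to -0.0147 in the male wild type controls. Tlr3, at about 7291 bases, had r = 0.80 with the slope over 24 libraries and 0.76 for deviations from the group means. With the length trend as an offset, its log2 fold change in males was 0.42 (adjusted p = 0.197). Nod2, Nod1 and Tlr9 had r = 0.67, 0.62 and 0.61 with the slope, Tlr2 0.18 and Myd88 0.32. For deviations from the group means, Tlr2 had r = 0.44 and Myd88 0.42. The 8 macrophage markers moved with Tlr3 too, the other way, with r = -0.71 over 24 libraries and -0.77 within groups. Their sum was 282, 312 and 282 CPM in the male wild type controls and 274, 217 and 212 CPM in the male Ptk6-/- controls, which do not overlap. The part of the macrophage markers in the Tlr3 values was not tested. Points share their library and its depth, so these are descriptions.

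**Figure D2:**
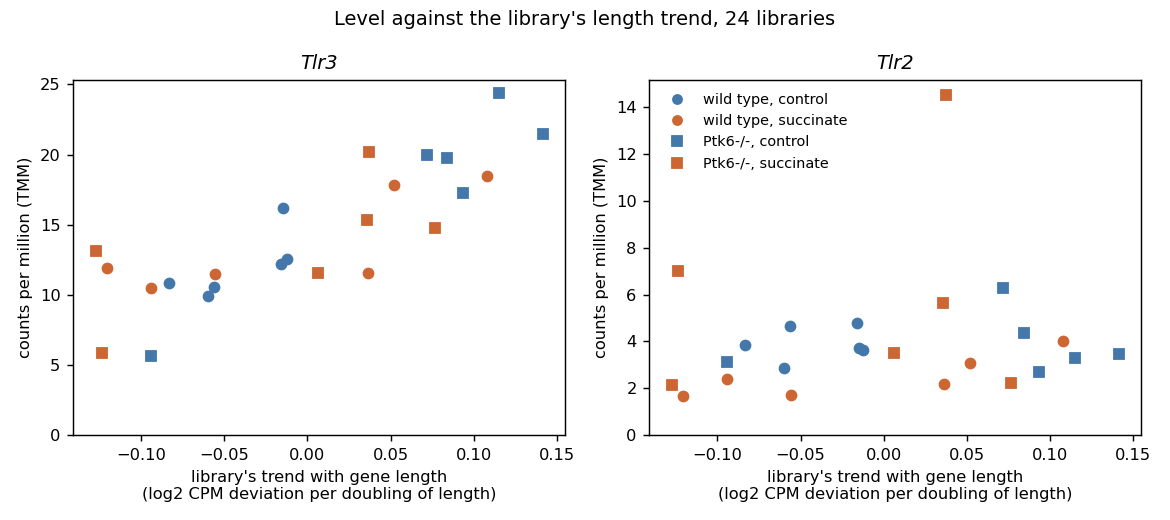
CPM of Tlr3 and Tlr2 (vertical axis) against each library's trend with gene length (horizontal axis), 24 libraries; circles are wild type, squares Ptk6-/-, blue control and orange succinate. Tlr3 is higher where long genes are higher (r = 0.80, and 0.76 for deviations from the group means). The trend itself separates the male control genotypes. Tlr2 shows less of the relation to gene length (r = 0.18, and 0.44 for deviations from the group means).

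Among the other genes in control males, Nlrp6, Myd88 and Nod1 had estimates near 0. Nlrp6 had a log2 fold change of -0.09 ± 0.12, with a 95% interval of -0.36 to 0.18, and Myd88 of -0.02 ± 0.11, with an interval of -0.28 to 0.23. Nod1 had -0.08 ± 0.17, with an interval of -0.46 to 0.31. These intervals exclude a difference of 1.5-fold in either direction. Nod2 stood at 1.2005, 1.67 and 1.74 CPM in wild type and at 3.30, 1.09 and 2.98 in Ptk6-/- males, which overlap, and its log2 fold change of 0.62 ± 0.42 had an interval of -0.34 to 1.58. Tlr5 was at 0.59 ± 0.58 (interval -0.73 to 1.92) and Tlr9 at 0.59 ± 0.55 (interval -0.68 to 1.85), both with overlapping groups. Single libraries moved Tlr5 between 0.06 (without Ptk6-/- replicate 1) and 0.91 (without Ptk6-/- replicate 3), and Tlr9 between 0.13 (without Ptk6-/- replicate 1) and 1.26 (without wild type replicate 1), while Tlr3 stayed between 0.46 and 0.71. Tlr2 was at -0.36 ± 0.26 and Tlr4 at 0.04 ± 0.40. With single libraries left out, Nod2 lay between 0.38 and 0.97, Tlr2 between -0.56 and -0.20 and Tlr4 between -0.10 and 0.25. Over all members, 5 of 9 fold changes were above 0, with a median of 0.04, beside 0.02 for all tested genes.

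In control females none of the 9 genes was called (0.0158% of all genes). Tlr9 was the 1 member at an unadjusted p under 0.05 (11.1% of all genes), and Tlr5 the 1 whose groups did not overlap (18.8% of all genes). Tlr9 stood at 0.384, 0 and 0.304 CPM in the wild type females and at 2.17, 3.62 and 0.282 CPM in the Ptk6-/- females. A pair of the knockout libraries was high and the other knockout library lay within the wild type range. The log2 fold change was 3.11 ± 1.19 (adjusted p = 0.410). The 7 B cell and follicle markers summed to 26.0, 24.8 and 14.0 CPM in these wild type libraries. In the Ptk6-/- libraries they summed to 53.9, 76.1 and 27.1 CPM. Their r with Tlr9 was 0.15 over 24 libraries, and their part in the Tlr9 values was not tested. Tlr5 stood at 0.320, 0.235 and 0.413 CPM in wild type and at 0.665, 1.08 and 0.423 CPM in Ptk6-/- females, a log2 fold change of 1.15 ± 0.57 (adjusted p = 0.483). Without Ptk6-/- replicate 2, Tlr5 was at 0.75.

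The female result turned on replicate 3 of the Ptk6-/- controls. Its slope with gene length was -0.0940, against 0.0717 and 0.115 in its group, and Tlr3 was 5.64 CPM there against 20.0 and 24.4. Macrophage markers summed to 806 CPM in it, against 274 and 192 CPM, and the 7 markers of proximal enterocytes to 41117 CPM, against 11619 and 13260 CPM. The wild type controls had slopes of -0.0834 to -0.0124, enterocyte markers at 30279 to 38140 CPM and macrophage markers at 259 to 376 CPM. Without replicate 3, the slope and the enterocyte markers do not overlap between the genotypes. Tlr9, Nod2 and Tlr3 had r = 0.61, 0.67 and 0.80 with the slope over 24 libraries. The part of these measures in the female values was not tested. Without replicate 3, edgeR called 2 members: Tlr9 at a log2 fold change of 3.63 (adjusted p = 0.0376) and Nod2 at 1.17 (adjusted p = 0.0489), in a fit that called 9.65% of all genes. Tlr3 then stood at 0.98 (adjusted p = 0.0282), just under the fold limit. The remaining pair of libraries was assumed to vary like the wild type group. With no library left out, edgeR had Tlr3 at 0.57 ± 0.48 (adjusted p = 0.673) and Nod2 at 0.78 ± 0.52 (adjusted p = 0.590). Leaving out single libraries gave 0.20 to 0.98 for Tlr3 and 0.45 to 1.17 for Nod2. With all libraries, voom with sample weights also called Tlr9 and Nod2 among 10.4% of all genes, and DESeq2 called neither. Of all 9 members 7 had fold changes above 0, with a median of 0.35 beside 0.04 for all tested genes.

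Over the 12 control mice of both sexes, with sex as a term, 0 of 9 members were called by edgeR (0.710% of all genes), 2 had an unadjusted p under 0.05 (23.7% of all genes), DESeq2 called 0 and voom called Tlr9 (4.12% of all genes by voom). The 2 were Tlr9, with a log2 fold change of 1.78 ± 0.79 (adjusted p = 0.190), and Tlr5, with 0.86 ± 0.40 (adjusted p = 0.210). Tlr3 was at 0.55 ± 0.26 (adjusted p = 0.220) and Nod2 at 0.70 ± 0.33 (adjusted p = 0.224). Without replicate 3 of the female Ptk6-/- controls these were 0.73 (adjusted p = 0.00432) and 0.86 (adjusted p = 0.0377), both under the fold limit. The interaction of sex and genotype called no gene of the whole table by edgeR (0%), DESeq2 and voom called 0 members, and none of the members reached an unadjusted p of 0.05 (4.64% of all genes). Of the members, Tlr9 had the largest estimate, 2.55 ± 1.36 (adjusted p = 0.999).

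Succinate was then compared with water within each sex and genotype. The comparisons of 1 genotype and sex share their control mice with the genotype comparisons above. In wild type males no gene of the table was called (0%), and none of the members reached an unadjusted p of 0.05 (4.07% of all genes) or separated the groups (8.70% of all genes). In Ptk6-/- males no gene was called (0%), Tlr2 reached p of 0.05 (7.75% of all genes), and Tlr2 and Tlr9 separated the groups (24% of all genes). In wild type females no gene was called (0%), no member reached p of 0.05 (7.77% of all genes), and Nod1 separated the groups (13.0% of all genes). In Ptk6-/- females 0.0879% of all genes were called and no member, no member reached p of 0.05 (10.7% of all genes), and Nlrp6 separated the groups (21.0% of all genes). DESeq2 called 0 members in each of these, and voom called 1, Tlr2 in wild type males, where it called 7.81% of all genes. Without treated replicate 1, edgeR also called Tlr2 in wild type males, at -1.12, in a fit that called 5.80% of all genes. The members' median log2 fold changes were -0.19, -0.32, 0.31 and -0.47 in that order, beside 0.02, -0.10, 0.03 and -0.04 for all genes, with 3, 1, 5 and 2 of 9 above 0.

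Tlr2 had opposite signs after succinate in the genotypes of male mice. In wild type males it stood at 4.64, 4.77 and 3.73 CPM on water and at 4.01, 2.42 and 1.72 CPM on succinate, a log2 fold change of -0.73 ± 0.36 (adjusted p = 0.947). In Ptk6-/- males it stood at 3.45, 2.68 and 4.37 CPM on water and at 6.99, 14.5 and 5.65 CPM on succinate. All 3 treated knockout males were above all 3 untreated ones. The log2 fold change was 1.43 ± 0.42 (adjusted p = 0.600). Without the highest library, replicate 2, it was 0.90, and without the shallow replicate 1, in which Tlr2 had 25 counts, it was 1.54. The 6 smooth muscle markers had r = -0.61 with Tlr2 over 24 libraries and -0.57 for deviations from the group means. They summed to 1839 to 2931 CPM on water and to 1950, 3289 and 6320 CPM on succinate in wild type males. In Ptk6-/- males they summed to 1787 to 2648 CPM and to 2627 to 2910 CPM. The smooth muscle sums overlapped in both genotypes. In Ptk6-/- males the 7 markers of proximal enterocytes summed to 10944 to 17019 CPM on water and 18888 to 48458 CPM on succinate. The 3 endothelial markers summed to 72.5 to 85.1 CPM and to 36.1 to 65.3 CPM there. The slope with gene length was 0.0842 to 0.141 on water and -0.124 to 0.0372 on succinate. The enterocyte, endothelial and slope values separated the Ptk6-/- groups and overlapped in wild type males. The part of all these measures in the Tlr2 values was not tested.

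In females Tlr2 had the same sign in both genotypes. It stood at 3.63, 3.83 and 2.87 CPM on water and at 1.66, 2.18 and 3.06 CPM on succinate in wild type, a log2 fold change of -0.57 ± 0.37. In Ptk6-/- females it stood at 6.28, 3.27 and 3.13 CPM on water and at 3.49, 2.13 and 2.24 CPM on succinate, a log2 fold change of -0.71 ± 0.40. Without the control at 6.28 CPM, replicate 1, it was -0.33, and in wild type females Tlr2 was at -0.37 without treated replicate 1. The groups overlapped in both genotypes.

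The difference between genotypes in the Tlr2 response was tested directly. In males the interaction was 2.17 ± 0.57 on the log2 scale (adjusted p = 0.992), with an interval of 0.92 to 3.41. No gene was called by edgeR for this interaction (0%), 3.80% of all genes had an unadjusted p under 0.05, and Tlr2 was the 1 member among them. DESeq2 gave an adjusted p of 0.0963 and voom 0.131, so those tools made no call either. Without the highest library, replicate 2 of the treated Ptk6-/- males, the interaction was 1.63, and without the 3 libraries that stood apart it was 2.19. On the log2(FPKM + 1) scale, which understates low genes, it was 0.58. In females the interaction was -0.11 ± 0.54, no gene was called by edgeR (0%), no member reached p of 0.05 (6.46% of all genes), and DESeq2 and voom called 0 members. The difference of the interactions between the sexes was not tested.

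**Figure D3:**
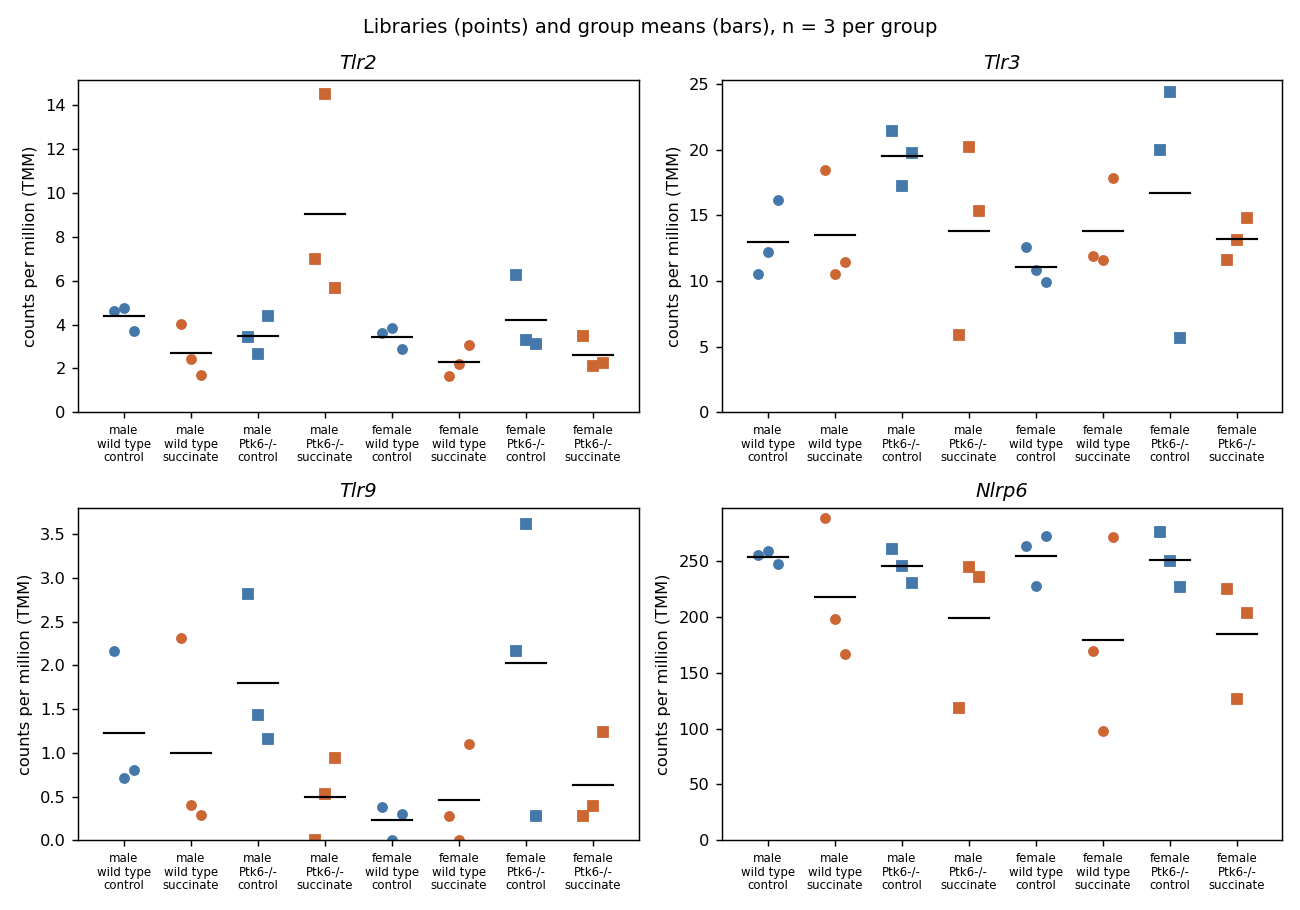
CPM of Tlr2, Tlr3, Tlr9 and Nlrp6 in the 8 groups; points are libraries, bars are means of 3, circles are wild type, squares Ptk6-/-, blue control and orange succinate. Tlr2 lies between 5.65 and 14.5 CPM in the succinate-treated male Ptk6-/- mice and lower in the other male groups, and the Nlrp6 libraries spread downwards on succinate.

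Under succinate, Tlr2 was also higher in Ptk6-/- than in wild type males, by 1.80 ± 0.52 on the log2 scale (adjusted p = 1.000), the same treated knockout libraries being used. In that comparison no gene was called (0%), Tlr2 was the 1 member at an unadjusted p under 0.05 (2.72% of all genes), and Tlr2 and Tlr4 separated the groups (9.26% of all genes). Tlr4 stood at 1.17, 1.21 and 1.03 CPM in wild type and at 0, 0.785 and 0.873 CPM in Ptk6-/- males. The 0 is the shallow library, where a count of 0 allows up to 3 counts, or 0.839 CPM, which is within the range of the other Ptk6-/- libraries. voom called Tlr2 in this comparison, among 9.52% of all genes, and DESeq2 called 0 members. The 7 B cell and follicle markers summed to 107, 132 and 127 CPM in these wild type males. In these Ptk6-/- males they summed to 31.6, 16.2 and 39.0 CPM. Their r with Tlr2 was -0.32 over 24 libraries, and their part in the Tlr2 values was not tested. In succinate-treated females no gene was called (0%), no member reached p of 0.05 (4.52% of all genes) and none separated the groups (10.7% of all genes), and DESeq2 and voom called 0 members.

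Nlrp6, the most abundant receptor, had a lower mean on succinate in each of the 4 comparisons, and none passed the test. The 12 control libraries lay between 226 and 276 CPM with a median of 253 CPM. The 12 succinate libraries lay between 98.0 and 288 CPM with a median of 201 CPM, and 8 of them were below the lowest control. In female Ptk6-/- mice it stood at 276, 250.04 and 226 CPM on water and at 225, 126 and 203 CPM on succinate. In female wild type mice it stood at 263, 227 and 272 CPM on water and at 169, 98.0 and 272 CPM on succinate. The log2 fold changes were -0.27 ± 0.24 and -0.26 ± 0.29 in wild type and Ptk6-/- males, and -0.49 ± 0.38 and -0.47 ± 0.30 in the same genotypes of females. Single libraries moved these values by over 1.5 times. Nlrp6 in Ptk6-/- males was at -0.03 without the shallow replicate 1 of the treated mice and -0.42 without replicate 2. In wild type males Nlrp6 was at -0.52 without treated replicate 1 and -0.13 without treated replicate 3. In wild type females Nlrp6 was at -0.21 without the library with heart markers and -0.89 without treated replicate 3, and in Ptk6-/- females at -0.27 without treated replicate 2. Over all 24 mice, with group terms for sex and genotype, the log2 fold change was -0.37 ± 0.15 (adjusted p = 0.254). It was the 1 member at an unadjusted p under 0.05 (15.2% of all genes) in a comparison that called 0.433% of all genes. DESeq2 called 0 members there and voom called Tlr9 (2.20% of all genes by voom).

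Other measures moved with Nlrp6. Its lowest values were 98.0 CPM in the library with heart markers and 118 CPM in the shallow library, and without the 3 libraries that stood apart the pooled log2 fold change was -0.24 (adjusted p = 0.443). The summed level of all 6 smooth muscle markers, each above 3 counts everywhere, was 1787 to 4538 CPM (median 2666) in control and 1950 to 7714 CPM (median 3787) in succinate libraries. Its r with Nlrp6 was -0.63 over 24 libraries. The 6 epithelial markers summed to 12688 to 20911 CPM (median 17073) in control and 8820 to 19173 CPM (median 14629) in succinate libraries. Their r with Nlrp6 was 0.41 over 24 libraries and 0.17 for deviations from the group means. With the slope on gene length, Nlrp6 had r = 0.44, and 0.56 for deviations from the group means. The part of tissue composition or of the length trend in the Nlrp6 result was not tested.

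Nod1, Tlr9 and Myd88 completed the succinate comparisons. Nod1 stood at 5.70, 5.5002 and 5.10 CPM in the wild type female controls and at 6.83, 14.4 and 7.38 CPM after succinate, a log2 fold change of 0.83 ± 0.37 (adjusted p = 0.640). The highest value is the library with heart markers, and without it the log2 fold change was 0.39. Tlr9 stood at 2.82, 1.43 and 1.16 CPM in the male Ptk6-/- controls and at 0, 0.533 and 0.938 CPM after succinate, a log2 fold change of -1.54 ± 0.71 (adjusted p = 0.600). The 6 dendritic cell markers summed to 33.2, 23.7 and 24.7 CPM in those controls and to 11.2, 18.9 and 22.5 CPM after succinate, and their r with Tlr9 was 0.59 over 24 libraries. The slope with gene length was 0.0842 to 0.141 in those controls and -0.124 to 0.0372 after succinate, which do not overlap. Tlr9 had r = 0.61 with the slope over 24 libraries and 0.57 for deviations from the group means. The part of the markers and of the slope in the Tlr9 values was not tested. In female Ptk6-/- mice Tlr9 was at -1.69 ± 0.91, against controls of which 2 were high and replicate 3 was at 0.282 CPM. It was at -0.96 without control replicate 2 and at -2.58 without treated replicate 3. With all libraries, Myd88 lay within 0.36 of 0 on the log2 scale in each of the 4 comparisons. The lowest estimate, -0.36 ± 0.30, was in wild type females. Single libraries left out moved Myd88 between -0.53 and -0.17 there, and between -0.40 and -0.09 in Ptk6-/- males.

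Between the sexes, 0 of 9 members were called by edgeR over all 24 mice (0.148% of all genes) and none reached an unadjusted p of 0.05 (13.9% of all genes). DESeq2 and voom called 0 members. Tlr9 had the largest estimate, lower in females by a log2 fold change of -0.76 ± 0.61 (adjusted p = 0.590). Tlr5 was at -0.65 ± 0.32 (adjusted p = 0.367), Nod2 at -0.59 ± 0.32 (adjusted p = 0.402) and Tlr2 at -0.51 ± 0.25 (adjusted p = 0.373). Leaving out single libraries gave -1.04 to -0.42 for Tlr9 and -0.77 to -0.40 for Tlr5. It gave -0.85 to -0.50 for Nod2 and -0.63 to -0.34 for Tlr2.

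**Figure D4:**
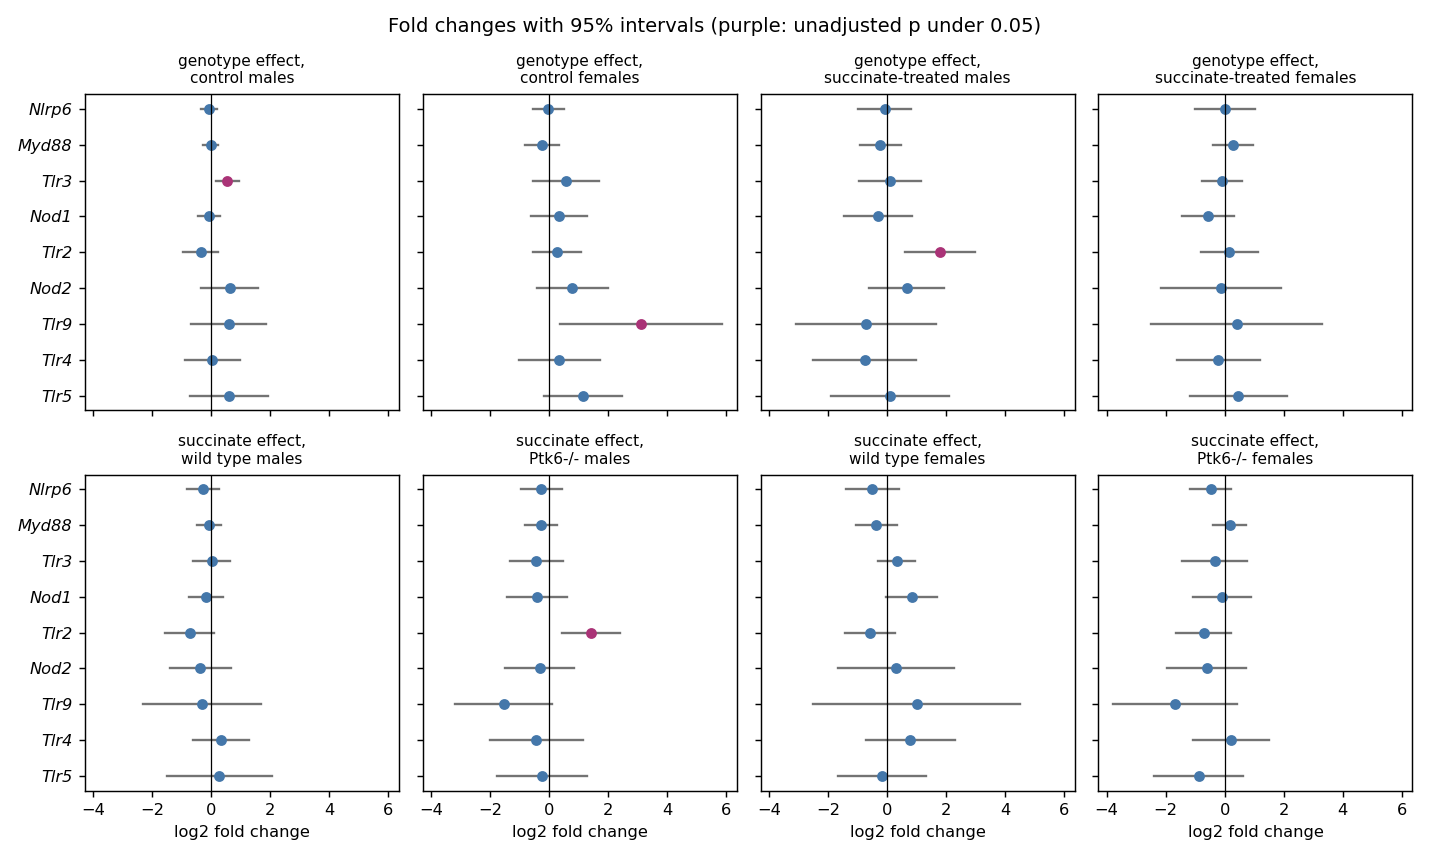
Log2 fold changes (horizontal axis) of the 9 genes in the 8 comparisons of 2 groups, Ptk6-/- against wild type in the upper row and succinate against water in the lower row; points are edgeR estimates and lines 95% intervals. The purple points, with an unadjusted p under 0.05, are Tlr3 (0.55), Tlr9 (3.11) and Tlr2 (1.80 and 1.43), and the intervals widen from Nlrp6 and Myd88 to Tlr9 and Tlr5.

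The pathway around the receptors was read from 6 lists: other Toll-like receptors, receptor partners, adaptors and kinases, other cytosolic sensors, C-type lectin and peptidoglycan sensors, and NF-κB outputs. In none of the 8 comparisons of 2 groups did edgeR call a gene of these lists with all libraries. Without 1 library it called up to 9 in control females (Ptk6-/- replicate 3 left out), where 9.65% of all genes were called. It called 3 for succinate in wild type males (treated replicate 1 left out; 5.80% of all genes) and 5 in wild type females (treated replicate 3 left out; 3.23% of all genes). In control males the cytosolic sensors had the highest median of the 6 lists, and 17 of 21 tested genes were above 0, with a median log2 fold change of 0.43, beside 0.02 for all genes. Of these, 8 were higher and 2 lower at an unadjusted p under 0.05, which 25.2% of all genes reached there in either direction. Naip1, a NAIP family sensor of bacterial proteins, was at 71.4 CPM in wild type and 114 CPM in Ptk6-/- males, a log2 fold change of 0.65 ± 0.15 (adjusted p = 0.0528). Ifih1, which encodes the RNA sensor MDA5, was at 42.0 and 65.3 CPM, a log2 fold change of 0.60 ± 0.14 (adjusted p = 0.0534). Of 19 adaptors and kinases 15 were above 0 there, with a median of 0.31. Tab2, an adaptor of the kinase TAK1, was at 64.2 and 103 CPM, with a log2 fold change of 0.64 ± 0.11 (adjusted p = 0.0330, under the fold limit). These comparisons rest on the male controls whose length trends differ.

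Pglyrp1, a secreted peptidoglycan-binding protein, lay the other way. Control males had 85.3 CPM (wild type) and 48.5 CPM (Ptk6-/-), a log2 fold change of -0.85 ± 0.19 (adjusted p = 0.0481, under the fold limit). In Ptk6-/- males it was at 48.5 CPM on water and 258 CPM on succinate, a log2 fold change of 2.51 ± 0.78 (adjusted p = 0.600). Card9, an adaptor of C-type lectin receptors, went from 11.9 to 31.7 CPM on succinate in Ptk6-/- males, at 1.47 ± 0.57 (adjusted p = 0.600). In females Card9 lay the other way on succinate, at 12.6 and 3.76 CPM in Ptk6-/- mice (-1.77 ± 0.54, adjusted p = 0.393) and at 14.1 and 6.46 CPM in wild type mice (-1.12 ± 0.48, adjusted p = 0.638). Other genes of the lists lay the other way in the Ptk6-/- males. On water and succinate, the chemokine gene Cxcl2 was at 3.70 and 0.327 CPM and the chemokine gene Ccl2 at 1.92 and 0.0436 CPM. The inflammasome sensor gene Nlrp1a was at 0.555 and 0 CPM. The treated group holds the shallow library, where a count of 0 allows up to 3 counts, or 0.839 CPM. That is above the Nlrp1a mean on water. In treated replicates 2 and 3 it allows up to 0.0841 and 0.0655 CPM. Of 6 C-type lectin and peptidoglycan sensors 3 were above 0 (median -0.06), and of 18 NF-κB outputs 7 were (median -0.21). Tlr2 was the member above 0 in treated Ptk6-/- males, the other 8 lying below 0. In Ptk6-/- males the 6 dendritic cell markers summed to 23.7 to 33.2 CPM on water and 11.2 to 22.5 CPM on succinate. The 5 neutrophil markers summed to 5.04 to 7.13 CPM and to 2.41 to 4.47 CPM. The 6 tuft cell markers went the other way, from 20.6 to 25.7 CPM to 28.3 to 37.6 CPM. None of these groups overlapped, nor did the enterocyte markers, endothelial markers and gene length slopes given above for these mice. The part of these measures in the values above was not tested.

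In Ptk6-/- females on succinate, the cytosolic sensors had their lowest median, -0.58 beside -0.04 for all genes, with 3 of 21 tested genes above 0. At an unadjusted p under 0.05, 7 were lower and 0 higher, where 10.7% of all genes reached it in either direction. Cell type markers moved in the same libraries. The 6 epithelial markers summed to 12688, 13594 and 20911 CPM on water and to 11808, 12339 and 10748 CPM on succinate, and the 5 T cell markers to 40.3, 52.4 and 90.5 CPM and to 29.8, 27.6 and 25.6 CPM. The 6 tuft cell markers summed to 17.1 to 24.4 CPM on water and to 81.6 to 211 CPM on succinate. The 2 distal ileum markers summed to 348 to 1628 CPM on water and to 32.8 to 221 CPM on succinate. The 5 stroma markers summed to 491 to 634 CPM and to 669 to 891 CPM. None of these groups overlapped, and the part of the markers in the list's values was not tested. Nlrc5, a regulator of class I antigen presentation genes, was at 14.7 CPM on water and 3.99 CPM on succinate, a log2 fold change of -1.90 ± 0.40 (adjusted p = 0.251). Naip2, a sensor of bacterial secretion system rods, was at 61.4 and 32.0 CPM (-0.97 ± 0.27, adjusted p = 0.358). Casp1, the inflammasome protease, was at 125 and 65.0 CPM in wild type females (-0.94 ± 0.32, adjusted p = 0.617). The treated group there holds the library with heart markers, and its epithelial markers summed to 8820 to 14862 CPM, below the 17631 to 20811 CPM of its controls. The part of these in the Casp1 values was not tested. Among receptor partners, Cd180, a relative of Tlr4 on B cells, was higher in Ptk6-/- than in wild type control females, at 3.02 against 0.644 CPM (2.21 ± 0.49, adjusted p = 0.367). The 7 B cell and follicle markers summed to 26.0, 24.8 and 14.0 CPM in these wild type libraries and to 53.9, 76.1 and 27.1 CPM in the Ptk6-/- libraries, and their part in the Cd180 values was not tested. Over all 24 mice 1 gene of the lists was called between the sexes, where 0.148% of all genes were: Cxcl2, a neutrophil chemokine, at a mean of 2.55 CPM in males and 0.115 CPM in females (-4.27 ± 0.67, adjusted p = 0.00359). The 5 neutrophil markers, low throughout, summed to 3.20 to 7.13 CPM in control males and 1.02 to 3.05 CPM in control females. They summed to 4.68 to 8.10 CPM in treated wild type males. In the treated Ptk6-/- males, where Cxcl2 was also low, they summed to 2.41 to 4.47 CPM. Treated females overlapped the males, at 1.75 to 4.67 CPM in wild type and 2.77 to 4.36 CPM in Ptk6-/- mice. Their part in the Cxcl2 difference was not tested.

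**Figure D5:**
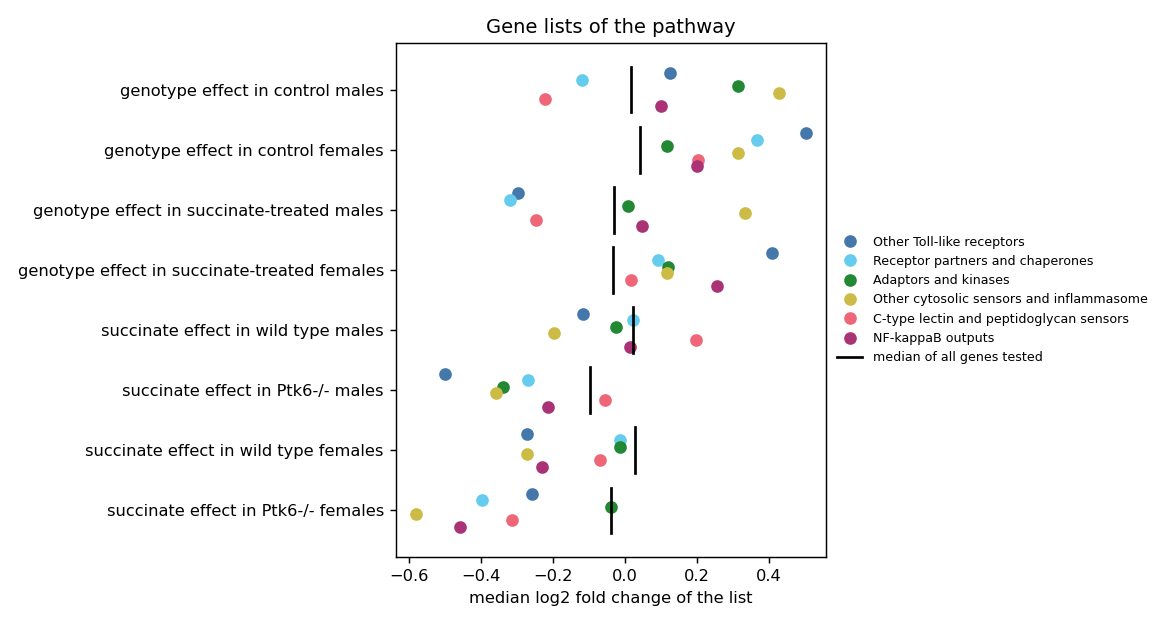
Median log2 fold change (horizontal axis) of each of the 6 gene lists in the 8 comparisons of 2 groups; coloured points are lists and black lines the median of all tested genes. The cytosolic sensor list lies at 0.43 for genotype in control males and at -0.58 for succinate in Ptk6-/- females.

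Among themselves, the 9 genes formed 36 pairs, of which 10 had r above 0.5 over the 24 libraries and 4 were below 0. Nod1 and Tlr4 were the most alike (r = 0.83, but 0.67 without the shallow library), followed by Tlr3 with Nod1 (0.73) and Nlrp6 with Myd88 (0.71). Of all 21694 genes that passed the count limit over 24 libraries, those most like Nlrp6 were Ugt2b34 (0.94), Slc6a20a (0.93) and Aco1 (0.93), a glucuronosyltransferase, an amino acid transporter and the cytosolic aconitase. For Tlr3 they were Pnisr (0.91), Snx13 (0.89) and Stk38 (0.89), and for Tlr2 Jdp2 (0.76), Plet1 (0.75) and Wdpcp (0.74). For deviations from the group means, r was 0.95 for Nlrp6 with Ugt2b34 and 0.95 for Tlr3 with Pnisr, but 0.29 for Tlr2 with Plet1. For Myd88 they were Zfp212, Eef2-ps2 and Pja1 (all 0.90), for Nod1 Kif26a (0.94), Epm2a (0.92) and Srgap2 (0.92), and for Nod2 Dpp8 (0.85), Eea1 (0.84) and Nid2 (0.83). For Tlr9 they were Rtl10 (0.90), C2cd3 (0.89) and Col12a1 (0.89), and for Tlr5 Zfp526, Arsk (both 0.82) and Arid1b (0.81). For Tlr4 they were Slc45a3 (0.96), Zfp58 (0.95) and Rftn1 (0.95), which dropped to 0.75, 0.73 and 0.67 without the shallow library. All points share library, depth and length trend.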

How the data were processed

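Poly(A) RNA of the distal jejunum was sequenced in stranded, paired-end libraries, 1 per mouse. The authors trimmed reads with Cutadapt, mapped them with HISAT2 and assembled them with StringTie. The count values, as deposited, are reads per gene without normalization, and the program that counted them is not given in the sources used here. The FPKM values, as deposited, were made by the authors with StringTie and ballgown. Both tables were read for 24 libraries (total counts 8080321 to 52824743), labelled as biological replicates, 3 per group.

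Counts were tested in R 4.3.3 with edgeR 4.0.16 (TMM, quasi-likelihood test, Benjamini-Hochberg adjustment over all genes) on genes that reached 10 counts in 3 or more of the libraries fitted. All 9 genes passed in all 14 comparisons. Genes were called at an adjusted p under 0.05 and a fold change of at least 2. The study's methods name DESeq2 for groups; here it was an alternative (DESeq2 1.42.0), beside limma 3.58.1 (voom; log2(FPKM + 1) or + 0.1 for a mean FPKM of at least 0.5), other size factors and filters, a length offset, a replicate block, 1 fit of all libraries and leaving out libraries. Gene length was taken from the ratio of counts to FPKM. The test was tested on simulated data. A second length-corrected level was CPM per kilobase. Floors of 3 counts cover counting error only. The genes and lists were chosen with earlier results of these data known. Named were all 9 genes, list genes called, up to 2 genes per list and comparison with the smallest p, and the 3 genes most alike to each member by r of log2 CPM (Gm and Rik symbols left out). The 3 libraries left out together were chosen after seeing the data.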

Additional observations from a re-analysis of the deposited data

Results flagged for a closer look

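The succinate effect on Tlr2 had opposite signs in the genotypes of males, and the interaction term of edgeR was 2.17 on the log2 scale, past an unadjusted threshold of 0.05 but not after adjustment (adjusted p = 0.992). Tlr2 was lower in 2 of 3 treated wild type males than in every untreated one and higher in 3 of 3 treated Ptk6-/- males. The interaction failed the correction over 20340 genes, of which 3.80% had an unadjusted p under 0.05.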

How the results depend on the processing

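With edgeR and all libraries, 0 of the 9 genes were called in each of the 14 comparisons. Voom with sample weights called 2 in control females (Tlr9 and Nod2), and 1 each for genotype in succinate-treated males and succinate in wild type males (both Tlr2), and for genotype over the control mice and succinate over all mice (both Tlr9). Leaving out single libraries gave 0 to 2 calls in control females (2 without Ptk6-/- replicate 3) and 0 to 1 for succinate in wild type males (Tlr2, without succinate replicate 1, at -1.12), and 0 in the other comparisons. The causes were not tested. Of 1362 fold changes under the other alternatives 1257 kept their sign, and 1243 of 1350 did with libraries left out. Tests on log2(FPKM + 1) shifted the median of all genes by -0.62 to 0.23, and on log2(FPKM + 0.1) by -1.02 to 0.38; FPKM is not corrected for the 18S share, whose part in this was not tested. Deviations of same-numbered libraries had r from -0.32 to 0.21, which does not settle whether replicate numbers share processing. The labels do not say that these numbers pair mice, so the main fits used no block. With the replicate block, the Tlr2 interaction was 2.11 and Tlr3 in control males 0.56 (adjusted p = 0.119), 0 of 9 genes were called in every comparison, and the calls over all genes in control males went from 142 to 5. The number of genes called over the whole table depended on the tool. DESeq2 and voom called 277 and 577 for genotype in control males (edgeR 142), 175 and 1972 in control females (edgeR 3), 72 and 1799 in succinate-treated males and 44 and 0 in succinate-treated females (edgeR 0 in both). For succinate they called 50 and 1498 in wild type males, 39 and 16 in Ptk6-/- males, 278 and 37 in wild type females (edgeR 0 in each) and 424 and 200 in Ptk6-/- females (edgeR 17). Pooled, they called 274 and 841 for genotype (edgeR 145), 304 and 477 for succinate (edgeR 94) and 211 and 109 for sex (edgeR 32). For the interactions of genotype and succinate they called 63 and 2 in males and 58 and 0 in females, and 19 and 7 for sex by genotype (edgeR 0 in each). Counts of 0 to 73 limit Tlr4, Tlr5 and, in some libraries, Tlr9.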
